A study of Mus musculus with 2 samples.

Results

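*Nr4a1*, *Nr4a2* and *Nr4a3* make up the NR4A family of nuclear receptors. They were taken by name as 3 of the 27031 genes of a single-cell UMI table and followed across cell types and treatment groups. NR4A proteins are orphan receptors: they act as transcription factors whose activity is set mainly by how much of them is made, and no classical hormone is known to switch them. Their genes are immediate-early genes, transcribed within minutes of many stimuli, among them cAMP, antigen receptor signals and bacterial products. In myeloid cells they are known for restraining inflammatory transcription and for the making of nonclassical monocytes, and in T cells for their part in regulatory and exhausted states.

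The study implanted MC38 colorectal tumor cells under the skin of female C57BL/6 mice aged 6 to 8 weeks, and gave them vehicle (control) or telmisartan, an angiotensin II receptor blocker, at 5 mg/kg by the intragastric route each day from implantation on. Tumors were taken on day 13 and, by the sample record, digested with collagenase, DNase and hyaluronidase for 60 minutes at 37 °C, where the paper names a commercial dissociation kit, and live CD45+ leukocytes were sorted. Cells of 5 mice were pooled in each group, marked with Sample Tag 1 (control) or 2 (telmisartan) and captured together. Each group is thus 1 pool without replicates, so there is no test between groups and no measure of variation between mice.

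Of 20726 putative cells, 8738 carried the control tag, with 54619115 UMIs, and 10222 the telmisartan tag, with 42401764. The control cells had a median of 12.1% mitochondrial UMIs and the telmisartan cells 23.3%, and 58.1% and 47.3% of them passed the limits on genes and mitochondrial share. After removal of predicted doublets, 4535 control cells remained with a median of 8689 UMIs, and 4434 telmisartan cells with a median of 6357.5. Levels are given as CPM, the UMIs of a gene per 1000000 UMIs of the same cells. Differences are given as log2 ratios of CPM, telmisartan over control. All intervals are 95% intervals for counting error alone, and UMIs are not counted per length of transcript, so levels are compared within a gene and never between genes.

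The cells fell into 13 clusters, named from markers. There were 8048 macrophage-like cells (4049 control and 3999 telmisartan), 664 dendritic-like cells (366 and 298), 185 T-like cells (72 and 113) and 72 neutrophil-like cells (48 and 24). One macrophage-like cluster of 1251 cells, led by interferon-induced genes, was shallow: its cells had a median UMI count 0.350 of that of their own group (0.278 in control, 0.388 in telmisartan), or 0.332 of the median of all kept cells. As in most macrophage-like clusters, no macrophage marker was among its 10 leading genes and 11 of the 11 were detected. Macrophage-like was the default name, given to clusters without enough markers of another class in which macrophage markers were detected. Detection does not set the class apart, since 10 of the 11 were also detected in a T-like cluster. The low depth of the shallow cluster makes its name less secure than those of the other macrophage-like clusters. The neutrophil-like cluster was shallower, with a median of 1769 UMIs, and was named from its own markers. Without the shallow macrophage-like cluster, the macrophage-like log2 ratios below were 0.68, 1.01 and 1.502.

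In macrophage-like cells, all 3 genes were higher in the telmisartan pool. *Nr4a1*, which encodes NUR77, had 488 CPM in control (481 to 495) and 786 in telmisartan cells (775 to 796), a log2 ratio of 0.69 (0.66 to 0.72). *Nr4a2*, which encodes NURR1, had 154 CPM (150 to 158) and 311 (305 to 318), a log2 ratio of 1.02 (0.97 to 1.07). *Nr4a3*, which encodes NOR1, had 79.8 CPM (77.0 to 82.7) and 223 (218 to 229), a log2 ratio of 1.48 (1.42 to 1.55). The CPM intervals of the 2 pools do not overlap for any of the 3.

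Set against all genes, 3 of the 3 were at least 1.5 times higher with telmisartan, a size that 529 of 11073 genes with at least 100 UMIs reached in that direction (4.78%) and 247 in the other (2.23%). By log2 ratio from the highest, *Nr4a3* ranked 33, *Nr4a2* 132 and *Nr4a1* 374 of the 11073 genes, whose median was -0.05. The members were chosen with earlier results of these data known, so such shares and ranks only describe them, here and in dendritic-like cells below. The size of the *Nr4a1* difference varied with the way of averaging and scaling. It was under 1.5 times in 4 of 14 alternatives: 0.56 as a mean over cells of UMIs per 10000, 0.54 with every cell thinned to 1000 UMIs, 0.48 with each macrophage subcluster given the same weight, and 0.28 without scaling. Without scaling for depth, each log2 ratio of macrophage-like cells shifts by -0.41, which puts the median of all genes at -0.45, *Nr4a2* at 0.61 and *Nr4a3* at 1.07. *Nr4a2* and *Nr4a3* stayed at least 1.5 times higher in 14 of 14 alternatives each.

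The share of macrophage-like cells with a UMI went the same way. *Nr4a1* was found in 77.0% of control and 82.8% of telmisartan cells, whose median depths were 8977 and 6463 UMIs. With every cell thinned to 1000 UMIs, which left out 45 control and 72 telmisartan cells, the shares were 34.5% (33.0 to 36.0%) and 47.7% (46.1 to 49.3%). *Nr4a2* was found in 46.2% and 59.0% of cells, and in 12.4% (11.4 to 13.5%) and 23.0% (21.7 to 24.3%) after thinning. *Nr4a3* was found in 28.6% and 48.4%, and in 6.79% (6.03 to 7.62%) and 16.3% (15.2 to 17.5%) after thinning. No class in these tumors is known to lack NR4A transcripts, so a background share from free RNA could not be set. Any such RNA is part of the values given, including the lowest class level of *Nr4a2*, that of neutrophil-like cells (62.1 CPM in control and 21.2 in telmisartan cells).

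Counts per cell spread more widely than sampling from 1 common level would give. In thinned macrophage-like cells of both groups, the ratio of variance to mean, which is 1 for Poisson counts, was 1.62 for *Nr4a1*, 1.41 for *Nr4a2* and 1.34 for *Nr4a3*. For *Nr4a1*, 1883 of 7931 cells had 1 UMI, 1372 had at least 2 and 64 at least 5, with 10 as the highest count. The ratio was close in the groups, at 1.64 in control and 1.57 in telmisartan cells for *Nr4a1*, and 1.35 and 1.30 for *Nr4a3*. More telmisartan than control cells held several copies: 819 telmisartan and 553 control cells had at least 2 *Nr4a1* UMIs.

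Reclustering gave 7 macrophage subclusters. Subcluster 1 was led by *Dcstamp*, *Il1r2* and *Areg*, subcluster 2 by *Serpina3g* and *Cxcl9*, subcluster 3 by *Gas6*, *Atp6v0d2* and *Cbr2*, and subcluster 4, with a median of 2416 UMIs, by *Ifit3* and *Ifit2* like the shallow cluster above. Subcluster 5 was led by *Serpinb2* and *Il6*, subcluster 6 by mitotic genes such as *Hmmr*, and subcluster 7 by DNA replication genes such as *Ung* and *Cdc6*. Subcluster 2 held the most control cells (1280) and subcluster 1 the most telmisartan cells (1152), so values over the whole class average over different cells in the 2 groups. *Nr4a2* and *Nr4a3* were among the variable genes used for clustering, and *Nr4a3* was a leading gene of subcluster 1, so their order over subclusters is partly built in. With the family left out of the variable genes, the ratios over the whole class were 0.69, 1.01 and 1.48.

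Within every macrophage subcluster the 3 genes were again higher with telmisartan, and 21 of 21 intervals lay above 0. For *Nr4a1* the log2 ratios ran from 0.28 (0.23 to 0.33) in subcluster 1 to 1.01 (0.94 to 1.08) in subcluster 3, and 2 of the 7 reached 1.5 times, subclusters 3 and 6. For *Nr4a2* they ran from 0.71 (0.50 to 0.93) in subcluster 5 to 1.34 (1.10 to 1.58) in subcluster 7. For *Nr4a3* they ran from 0.70 (0.41 to 1.00) in subcluster 5 to 1.75 (1.55 to 1.96) in subcluster 6. All 7 subclusters were at least 1.5 times higher for *Nr4a2* and for *Nr4a3*.

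**Figure D1:**
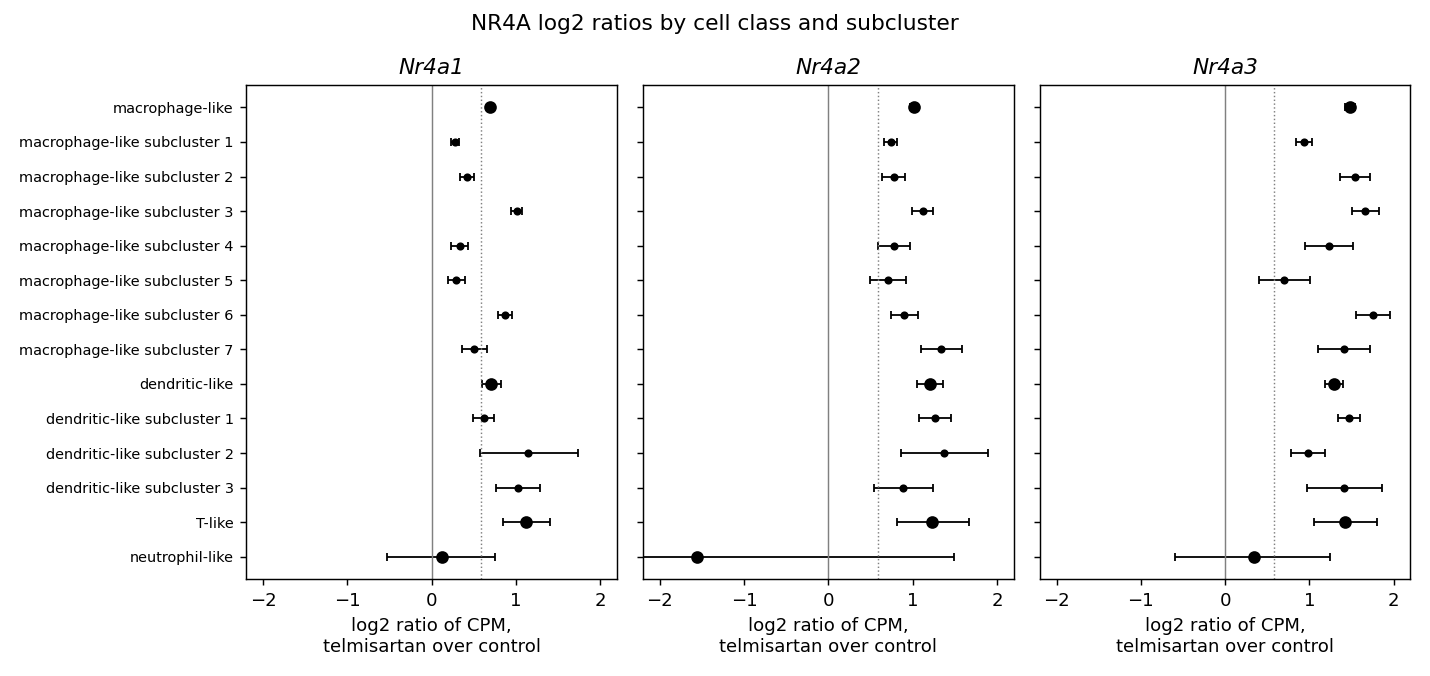
Log2 ratios of CPM, telmisartan over control (horizontal axis), for the 3 genes in each cell class (large points) and macrophage-like or dendritic-like subcluster (small points), with 95% counting intervals as bars, a solid line at 0 and a dotted line at 1.5 times (0.58). Points of the macrophage-like and dendritic-like classes and their subclusters lie right of 0, whereas the 3 neutrophil-like intervals hold 0, that of *Nr4a2* reaching -7.08 beyond the axis.

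The order of levels over the subclusters was much alike for the 3 genes at the top and less so below. *Nr4a1* was highest in subcluster 4, with 871 CPM in control and 1096 in telmisartan cells, ahead of subcluster 1 with 735 and 890.4. By the share of cells with a UMI after thinning to 1000 UMIs, subcluster 4 was not ahead, with 48.7% (43.4 to 54.1%) and 51.6% (47.8 to 55.3%) beside 49.5% (45.7 to 53.3%) and 56.0% (53.1 to 58.9%) in subcluster 1. Thinning left out 27 control and 41 telmisartan cells of subcluster 4 and none of subcluster 1. Subcluster 4 also had the highest immediate-early sums of the 7, 25951 and 29319 CPM, and the highest median mitochondrial share, 11.9% and 10.8%, whose part was not tested. By level, subcluster 5 came next in control, at 606 CPM. At the low end in control were subclusters 2, 7 and 6, with 416, 415 and 385 CPM, each not apart from the next beyond counting error, and then subcluster 3 with 361. With telmisartan, subcluster 3 stood at 725 CPM, not apart from subclusters 5 (741) and 6 (703), and subclusters 7 (590.1) and 2 (554) were lowest and not apart.

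*Nr4a2* was highest in subcluster 1, with 266 CPM in control and 444 in telmisartan cells, followed by subcluster 4 with 240.3 and 411. In control these did not differ beyond counting error, and the 5 others, subclusters 2 (139), 5 (125), 3 (109.7), 7 (109) and 6 (106), did not differ from their neighbors in the order, although those further apart in it could differ. With telmisartan, subcluster 7 was next at 277, then subclusters 3 (238) and 2 (237), which were not apart, and last subclusters 5 (204) and 6 (199), also not apart.

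*Nr4a3* was highest in subcluster 1, with 172 CPM in control and 328 in telmisartan cells, and next in subcluster 4, with 97.5 and 228. In control the others were subclusters 5 (66.0), 7 (65.8) and 3 (59.7), each not apart from the next, and then 2 (52.5) and 6 (51.7), also not apart. With telmisartan the order below the top was different: subclusters 3 (189), 7 (175) and 6 (174) were not apart, subcluster 2 had 153 and subcluster 5 was lowest with 107.

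Dendritic-like cells had the highest *Nr4a3* level of the 4 classes. *Nr4a3* is known for a part in the CCR7-dependent migration of dendritic cells. It had 376 CPM in control (354 to 399) and 918 in telmisartan cells (877 to 960.3), a log2 ratio of 1.29 (1.18 to 1.40). *Nr4a2* had 188 (172 to 204) and 431 (404 to 461), a log2 ratio of 1.20 (1.05 to 1.36). *Nr4a1* had 442 (419 to 467) and 723 (687 to 761), a log2 ratio of 0.71 (0.60 to 0.82). Here too 3 of 3 were at least 1.5 times higher, which 3.69% of 5832 genes were, and 3.34% were at least 1.5 times lower. *Nr4a3* ranked 14, *Nr4a2* 21 and *Nr4a1* 122 of these genes. The *Nr4a1* difference was just under 1.5 times as a mean over cells (0.58) and was 0.51 without scaling.

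Among the 3 dendritic-like subclusters, *Nr4a1* and *Nr4a3* were ordered differently. Subcluster 2, led by *Fscn1* and other genes of mature dendritic cells (58 control and 45 telmisartan cells), had 1026 *Nr4a3* CPM in control (922 to 1139) and 2026 in telmisartan cells (1847 to 2218). Its log2 ratio was 0.98 (0.78 to 1.19), its immediate-early genes summed to 12612 and 17129 CPM, and their part was not tested. The same subcluster had the lowest *Nr4a1* level, 129 CPM (93.5 to 173) and 285 (220.1 to 362), where subcluster 1 (256 and 215 cells) had 513 and 787 and subcluster 3, led by *Xcr1* and mostly mitotic genes such as *Pbk* and *Kif22* (52 and 38 cells), 370 and 751. Subclusters 1 and 3 differed in *Nr4a1* beyond counting error in control but not with telmisartan. For *Nr4a3*, subcluster 1 had 332 and 919 CPM and subcluster 3 had 123 and 327, each step beyond counting error. *Nr4a2* levels were closer, 152 to 221 CPM in control and 392 to 445 with telmisartan, and only subclusters 3 and 2 in control differed beyond counting error, by a log2 ratio of 0.54 (0.06 to 1.04). All 9 intervals of the dendritic-like subclusters lay above 0.

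**Figure D2:**
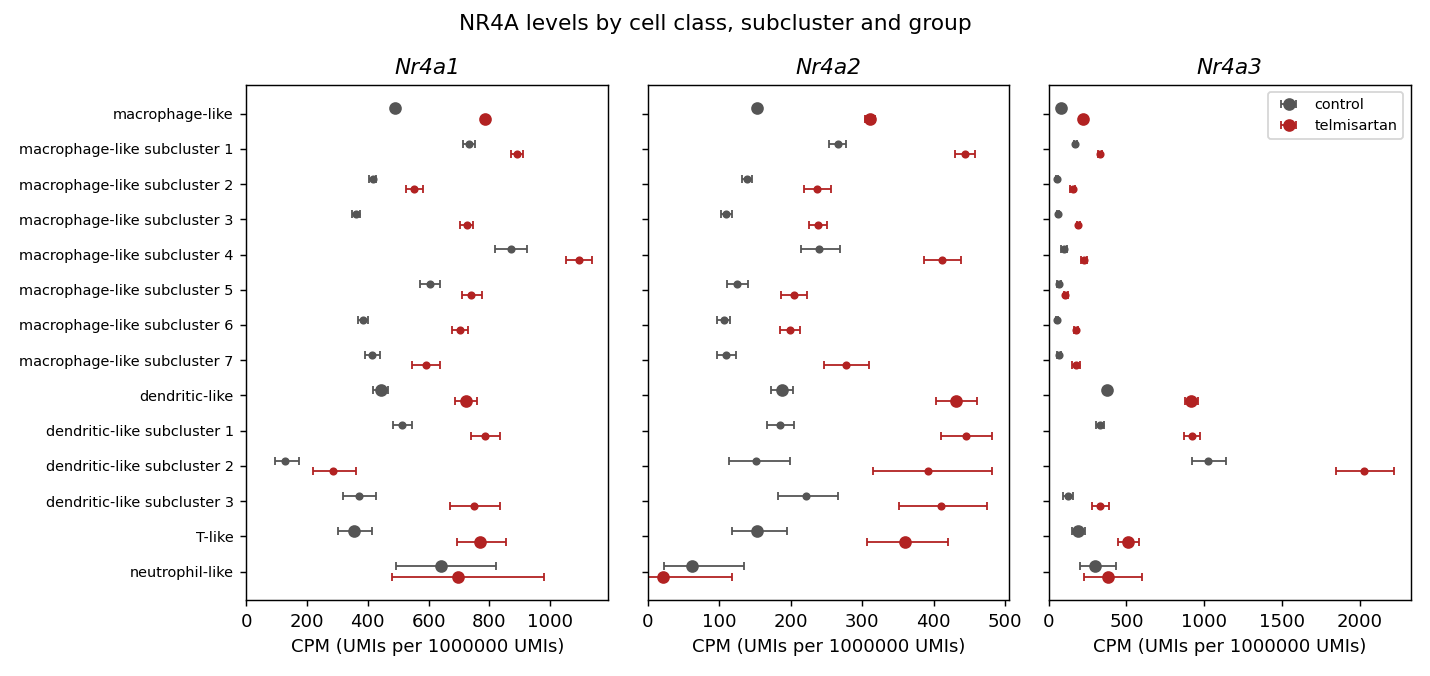
Levels of the 3 genes in CPM (UMIs per 1000000 UMIs, horizontal axis, a scale of its own in each panel) in each class (large points) and subcluster (small points), control in grey and telmisartan in red, with exact Poisson 95% intervals as bars. The *Nr4a3* points of dendritic-like subcluster 2, at 1026 and 2026 CPM, stand above all others drawn for that gene.

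Thinned to 1000 UMIs, 25.8% of control dendritic-like cells (21.3 to 30.6%) and 49.0% of telmisartan cells (43.1 to 54.8%) had an *Nr4a3* UMI, with 1 and 4 shallower cells left out. Before thinning the shares were 54.9% and 79.9%, at median depths of 7593 and 6287.5 UMIs. For *Nr4a1* the thinned shares were 29.9% (25.2 to 34.8%) and 45.6% (39.8 to 51.5%), from 69.4% and 80.5%. For *Nr4a2* they were 17.3% (13.5 to 21.5%) and 28.6% (23.5 to 34.1%), from 47.3% and 62.1%.

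In T-like cells, where NR4A genes follow antigen receptor signals, the counts were small. *Nr4a1* had 155 UMIs in control and 349 in telmisartan cells, 354 and 771 CPM, a log2 ratio of 1.12 (0.85 to 1.41). *Nr4a2* had 67 and 163 UMIs, 153 and 360.1 CPM, a log2 ratio of 1.23 (0.82 to 1.67). *Nr4a3* had 83 and 230 UMIs, 190 and 508 CPM, a log2 ratio of 1.42 (1.05 to 1.80). The 3 ratios were 0.52 (under 1.5 times), 0.63 and 0.82 if not scaled for depth, and with cells thinned to 500 UMIs that of *Nr4a3* was 2.16. Thinned to 500 UMIs, with no cell left out, *Nr4a3* was found in 4 of 72 control cells (5.56%, 1.53 to 13.6%) and 28 of 113 telmisartan cells (24.8%, 17.1 to 33.8%), against 37.5% and 56.6% before thinning at median depths of 3912 and 3001 UMIs. For *Nr4a1* the thinned shares were 18.1% (9.98 to 28.9%) and 29.2% (21.0 to 38.5%), from 52.8% and 63.7%. For *Nr4a2* they were 6.94% (2.29 to 15.5%) and 15.9% (9.72 to 24.0%), from 31.9% and 53.1%, and the intervals of these 2 genes overlap.

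All 11 macrophage markers had UMIs in T-like cells, with *Lyz2* the most abundant, and summed to 5686 CPM in control and 4167 in telmisartan cells, beside 16615 and 15568 in macrophage-like cells. T cells can make *Ly6c2* and *Ccr2* themselves, and the other 9 markers summed to 4558 and 2839 CPM. The part of such RNA in the NR4A values was not tested. T markers summed to 4329 and 5663 CPM in T-like cells. Of 4 T-like subclusters, subcluster 4 (11 control and 7 telmisartan cells) was led by *C1qc*, *Ccl12* and other macrophage genes. Without it, an alternative chosen after seeing the data, the log2 ratios were 1.24, 1.56 and 1.37. In subcluster 4 itself they were -0.02, -0.65 and -0.79, with all 3 intervals holding 0.

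The other T-like subclusters differed in depth and number. Subcluster 1, led by *Xcl1*, *Ifng* and granzyme genes (26 and 49 cells), had log2 ratios of 1.39 (1.01 to 1.78) for *Nr4a1*, 1.34 (0.79 to 1.92) for *Nr4a2* and 1.55 (1.10 to 2.03) for *Nr4a3*. Its immediate-early genes summed to 8707 CPM in control and 13118 in telmisartan cells, higher along with the NR4A genes, and their part was not tested. Subcluster 2, with *Cd8b1* and *Il7r* among its leading genes (21 and 42 cells), had 1.69 for *Nr4a1* (0.61 to 2.98), and for *Nr4a2* 3 UMIs against 37, a log2 ratio of 2.64 (0.98 to 4.99). These *Nr4a2* UMIs came from 2 control and 16 telmisartan cells. Thinned to 500 UMIs, *Nr4a2* was found in 1 and 8 cells, and the intervals of the shares overlap. The *Nr4a3* ratio of subcluster 2 was 0.02 (-0.99 to 1.10). The median mitochondrial share of subcluster 2 was 12.1% in control and 8.85% in telmisartan cells, and its part was not tested. Subcluster 3, with *Foxp3* and *Ikzf2* (14 and 15 cells), had 2 and 24 *Nr4a3* UMIs, a log2 ratio of 3.07 (1.06 to 6.19), and for *Nr4a1* 0.52 (-0.29 to 1.37). It had 0 *Nr4a2* UMIs among 61251 in control, a limit of 49.0 CPM at 3 counts. Telmisartan cells had 9, or 103 CPM, which is 2.09 times that limit. With the counting error of both groups taken in, the log2 ratio is at least 0.46, a limit that takes each UMI as independent. The 9 UMIs came from 5 of the 15 cells. Thinned to 500 UMIs, *Nr4a2* was found in 0 cells of subcluster 3 in either group. In all, 7 of the 12 T-like subcluster intervals lay above 0 and 5 held it, again with each UMI taken as independent.

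Of 13 genes linked to NR4A in T cells with at least 100 UMIs in T-like cells, 2 were at least 1.5 times higher and 1 lower, where of all 1596 such genes 8.83% were higher and 7.83% lower. *Pdcd1*, which encodes the inhibitory receptor PD-1, had 151 and 320.4 CPM, a log2 ratio of 1.09 (0.66 to 1.53). *Cd5*, a marker of antigen receptor signaling, had 137 and 267, a log2 ratio of 0.96 (0.51 to 1.44). *Foxp3* was lower, with 256 and 166, a log2 ratio of -0.63 (-1.07 to -0.19), and *Ctla4* was at 0.44 (0.23 to 0.64). T-like subcluster 3, with *Foxp3* among its leading genes, held 14 of 72 control and 15 of 113 telmisartan cells. Values over all T-like cells thus average over different cells in the 2 groups. Of 23 immediate-early genes in T-like cells, 5 were at least 1.5 times higher and 6 lower, beside the same shares of all genes. Their part in the NR4A values was not tested.

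In neutrophil-like cells the 3 NR4A intervals held 0. *Nr4a1* had 642 CPM in 48 control cells and 698 in 24 telmisartan cells, a log2 ratio of 0.12 (-0.53 to 0.75), which was -0.28 as a mean over cells and -0.42 with cells thinned. *Nr4a3* had 300.2 and 381 CPM, a log2 ratio of 0.34 (-0.59 to 1.24), which was 1.00 with cells thinned and 1.68 with at least 90% of tag reads from 1 tag. *Nr4a2* had 6 UMIs and 1, a log2 ratio of -1.55 (-7.08 to 1.49), which was 0.00 with cells thinned and -0.13 without doublet removal. A difference was thus not detectable at this depth in any of the 3. Of 17 immediate-early genes in these cells, 9 were at least 1.5 times higher and 0 lower, where of all 201 genes with at least 100 UMIs 21.4% were higher and 13.4% lower. The immediate-early genes summed to 40518 CPM in control and 61227 in telmisartan cells, and their part in the NR4A values was not tested.

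Across classes, the order of levels differed by gene. In control, *Nr4a1* was highest in neutrophil-like cells, then macrophage-like, dendritic-like and T-like cells, each step beyond counting error. The first step was narrow, at 0.40 (0.01 to 0.75) from 62 neutrophil-like UMIs. Median depths in that order were 1730, 8977, 7593 and 3912 UMIs. Control macrophage-like cells under 5000 UMIs had 751 CPM, above the 642 of neutrophil-like cells, so the first step does not hold against them. With telmisartan the 4 classes lay between 698 and 786 *Nr4a1* CPM and no neighbors in the order differed. Macrophage-like cells were, however, above dendritic-like cells by a log2 ratio of 0.12 (0.04 to 0.20). *Nr4a2* was highest in dendritic-like cells in both groups and lowest in neutrophil-like cells (62.1 and 21.2 CPM), with macrophage-like and T-like cells between them and not apart. The T-like cells were also not apart from the dendritic-like cells in control. *Nr4a3* was highest in dendritic-like and lowest in macrophage-like cells in both groups. In control, neutrophil-like cells were not apart from the dendritic-like cells above or the T-like cells below. With telmisartan, T-like and neutrophil-like cells were not apart.

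Early-response genes, chaperones, mitochondrial share and depth can all move with tissue digestion and cell quality, and they are set beside the family here. In macrophage-like cells, 32 immediate-early genes other than NR4A summed to 18395 CPM in control and 19268 in telmisartan cells, and 14 heat shock genes to 6497 and 6318. Such a sum weighs abundant genes most. Gene by gene, 10 of the 32 immediate-early genes were at least 1.5 times higher and 0 lower, beside 4.78% and 2.23% of all genes. The median mitochondrial share was 7.21% and 8.14%. Their part in the NR4A differences was not tested.

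The NR4A differences were also taken within strata of macrophage-like cells, and 27 of 27 intervals lay above 0. Over 3 ranges of mitochondrial share, up to 5%, 5 to 10% and 10 to 20%, the log2 ratios of *Nr4a1* were 0.45, 0.77 and 0.70, those of *Nr4a2* 1.07, 1.10 and 0.73, and those of *Nr4a3* 1.39, 1.61 and 1.18. Over depth, *Nr4a1* had 0.30 (0.23 to 0.38) in cells under 5000 UMIs, 0.57 from 5000 to 10000 and 0.72 (0.68 to 0.76) above. *Nr4a1* was itself higher in shallow control cells, with 751 CPM under 5000 UMIs and 440.1 above 10000, whereas *Nr4a3* had 88.8 and 81.0. The ratios of *Nr4a3* by depth were 1.21, 1.52 and 1.56, and those of *Nr4a2* 0.92, 0.82 and 1.06.

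Split in 3 by the share of immediate-early UMIs, at 1.46% and 2.15%, the cells with the lowest share had log2 ratios of 0.99 (0.93 to 1.05) for *Nr4a1*, 1.30 (1.21 to 1.39) for *Nr4a2* and 1.59 (1.48 to 1.71) for *Nr4a3*. The middle cells had 0.68, 0.87 and 1.57, and those with the highest share 0.56, 0.94 and 1.28. In control, *Nr4a1* was itself higher in cells with a higher share, with 266, 503 and 726 CPM over the 3 parts. So was *Nr4a3*, with 65.3, 83.8 and 92.0 CPM, while *Nr4a2* had 118, 184 and 159. With telmisartan, *Nr4a1* had 529, 807 and 1072 CPM, *Nr4a3* 197, 249 and 223, and *Nr4a2* 291, 336 and 304. Since *Nr4a1* in both groups and *Nr4a3* in control follow the share used for the split, these values do not weigh the part of the early response.

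The 3 genes were found together in the same cells more often than the product of their shares. In macrophage-like cells thinned to 1000 UMIs, 40 of 4004 control cells had UMIs of all 3, where the product gives 11.7, and 136 of 3927 telmisartan cells, where it gives 70.2. By pairs in control, *Nr4a2* with *Nr4a3* was found in 1.89 times the product, *Nr4a1* with *Nr4a3* in 1.43 times and *Nr4a1* with *Nr4a2* in 1.40 times. With telmisartan these were 1.41, 1.28 and 1.18 times. Taken within each of the 7 subclusters and each group, 39 of 42 pairs were above the product and 3 below, many from few cells. In subcluster 1, the largest, the ratios of these pairs were 1.70, 1.20 and 1.18 in control and 1.113, 1.106 and 1.09 with telmisartan. None of the 3 was found in 2251 control cells and 1479 telmisartan cells.

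The lists below were also written with earlier results of these data known, so their counts are descriptions. They are set beside the shares of all genes at least 1.5 times higher and lower, 4.78% and 2.23% in macrophage-like and 3.69% and 3.34% in dendritic-like cells. Among nuclear receptors at large, 24 of 48 had at least 100 UMIs in macrophage-like cells. Besides the NR4A genes, 2 of 21 (9.52%, beside 4.78% of all genes) were at least 1.5 times higher and 0 were lower, with a median log2 ratio of 0.01. The 2 were *Nr1d1*, which encodes the clock repressor REV-ERBα, at 0.99 (0.75 to 1.24), and *Ppard*, a fatty acid sensor, at 0.59 (0.48 to 0.70). *Nr3c1*, the glucocorticoid receptor, was at -0.10, and *Vdr*, the vitamin D receptor, at -0.12. In dendritic-like cells 0 of 7 receptors other than NR4A were past 1.5 times in either direction.

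Of the 32 immediate-early genes, 10 (31.2%, beside 4.78% of all genes) were at least 1.5 times higher in macrophage-like cells and 0 were lower, with a median log2 ratio of 0.28. The MAP kinase phosphatase gene *Dusp2* was at 1.78 (1.68 to 1.88), and *Fosl1*, a partner in AP-1, at 1.72 (1.51 to 1.94). Other AP-1 genes went both ways, with *Fos* at -0.46 (-0.47 to -0.44) and *Jun* at -0.43 (-0.46 to -0.39), and *Fosl2* at 0.63, *Fosb* at 0.53 and *Junb* at 0.45. Heat shock genes had 2 of 14 higher, *Hspb1* and *Bag3*, and a median of -0.03. In dendritic-like cells 6 of 31 immediate-early genes (19.4%, beside 3.69%) were at least 1.5 times higher and 0 lower, and *Fos* was at -0.52.

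Signaling routes known to induce NR4A genes were followed by lists. Of 25 genes of cAMP and CREB signaling, 3 (12.0%, beside 4.78%) were at least 1.5 times higher in macrophage-like cells and 0 lower, with a median of 0.10. They were the adenosine receptors *Adora2b* at 0.94 (0.83 to 1.05) and *Adora2a* at 0.71 (0.48 to 0.94), and *Crem*, a CREB-family factor that cAMP induces, at 0.91 (0.84 to 0.97). Of 15 genes of calcium, calcineurin, NFAT and MEF2, 0 passed 1.5 times in either direction, with a median of 0.00. In dendritic-like cells *Crem* was at 0.84 and *Sik1*, a kinase that CREB induces, at 0.95, with 3 of 18 genes of the cAMP list higher (16.7%, beside 3.69%) and 2 lower (11.1%, beside 3.34%).

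Of 14 NF-κB genes, 8 were at least 1.5 times higher in macrophage-like cells and 0 lower, beside 4.78% and 2.23% of all genes, with a median of 0.64 beside -0.05. *Nfkbie*, an inhibitor of NF-κB, was at 1.36 (1.31 to 1.42), *Nfkbia*, another, at 0.80 (0.78 to 0.81), and the subunit gene *Rel* at 0.91 (0.86 to 0.97). The kinase complex genes *Ikbkb*, *Chuk* and *Ikbkg* were at 0.07, -0.11 and -0.32. In dendritic-like cells 1 of 13 was higher, *Nfkbie* at 0.78, and the median was 0.15. Of partners and corepressors of NR4A proteins, 0 of 14 passed 1.5 times: the heterodimer partner *Rxra* was at 0.01 and *Rcor1*, which encodes the corepressor CoREST, at -0.08.

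Genes of NR4A-linked cell states were mixed. Of nonclassical monocyte genes, 3 of 10 were at least 1.5 times higher in macrophage-like cells and 1 lower, beside 4.78% and 2.23% of all genes, with *Cd36* at 0.73, *Itgal* at -0.66 and a median of 0.21. *Cx3cr1* was at 0.36. Of genes linked to NR4A in T cells, 0 of 10 were higher in macrophage-like cells and 1 lower, *Tnfrsf9* at -1.06. Of mature dendritic cell genes, 1 of 10 was higher in dendritic-like cells, beside 3.69% of all genes, *Il12b* at 0.88 (0.67 to 1.09), and 0 were lower, with a median of 0.11. *Ccr7* was at 0.25 and *Ccl22* at -0.57. Without scaling, every ratio of macrophage-like cells is lower by the shift given above, and of the list medians for these cells only that of NF-κB genes is then above 0. Fewer NF-κB, immediate-early and cAMP genes then reach 1.5 times higher in these cells than the counts given.

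The genes whose pattern was most like each member were taken by Pearson correlation of log2(CPM + 1) over 16 points, the 2 groups of 8 subclusters, among 10304 genes. For *Nr4a1* they were *Pim3* (0.93), *Fosl2* (0.91), *Dennd4a* (0.91), *Gadd45b* (0.89) and *Csrnp1* (0.89). For *Nr4a2* they were *Gpr132* (0.92), *Cwc25* (0.92), *Nfe2l2* (0.92), *Arl5b* (0.90) and *Zfp667* (0.90). For *Nr4a3* they were *Coq10b* (0.91), *Rel* (0.91), *Gpr132* (0.91), *Got1* (0.89) and *Etv3* (0.86). Between members the correlation was 0.85 for *Nr4a1* with *Nr4a2*, 0.84 for *Nr4a2* with *Nr4a3* and 0.62 for *Nr4a1* with *Nr4a3*. The points were 7 macrophage-like subclusters and dendritic-like subcluster 1 in both groups. At the 2 dendritic-like points *Nr4a3*, with 332 and 919 CPM, was higher than at any macrophage-like point, and the likeness without them was not computed. All points share 1 capture and 2 pools, and the log2 median depth of a point correlated at -0.67 with *Nr4a1*, -0.41 with *Nr4a2* and -0.17 with *Nr4a3*.

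The 3 genes lie apart on GRCm38: *Nr4a1* on chromosome 15 (101254269 to 101274795, plus strand), *Nr4a2* on chromosome 2 (57106830 to 57124003, minus strand) and *Nr4a3* on chromosome 4 (48045153 to 48086447, plus strand). In GENCODE M21, 0 other annotated genes overlap any of them, so no neighbor shares their reads by position. Since the 3 were higher together, their promoters are shown, 250 bases before to 50 after the start that RefSeq gives (GRCm38.p6), and 3 of 3 members were matched. The motifs were chosen after the data had been seen, and each was searched on both strands.

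The letters TGACG, the core that CREB-family proteins bind in cAMP response elements, are in capitals below, read as CGTCA on the other strand. Each of the 3 windows holds 4 of them, where 20.8% of 32851 promoters hold any and 0.231% hold 4 or more. The windows are also rich in G and C, at 72.3%, 81.7% and 64.7% against a median of 52.7%, and the motif holds CG. The windows lie at chr15:101266596-101266895 (plus strand), chr2:57123954-57124253 (minus strand) and chr4:48045055-48045354 (plus strand). The *Nr4a1* window lies inside the gene span given above, since the gene has several starts.
Nr4a1: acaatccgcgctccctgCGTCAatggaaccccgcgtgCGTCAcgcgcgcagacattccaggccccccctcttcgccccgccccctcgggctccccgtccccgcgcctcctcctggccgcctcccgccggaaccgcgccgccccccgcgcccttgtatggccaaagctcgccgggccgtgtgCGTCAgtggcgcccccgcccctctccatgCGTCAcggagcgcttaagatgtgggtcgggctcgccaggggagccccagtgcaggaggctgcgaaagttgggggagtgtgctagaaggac
Nr4a2: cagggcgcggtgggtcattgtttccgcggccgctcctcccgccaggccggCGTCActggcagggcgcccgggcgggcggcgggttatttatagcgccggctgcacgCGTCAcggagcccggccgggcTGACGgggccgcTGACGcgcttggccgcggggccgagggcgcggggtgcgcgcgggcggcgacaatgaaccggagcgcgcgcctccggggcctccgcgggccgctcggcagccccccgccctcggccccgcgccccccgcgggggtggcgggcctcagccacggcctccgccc
Nr4a3: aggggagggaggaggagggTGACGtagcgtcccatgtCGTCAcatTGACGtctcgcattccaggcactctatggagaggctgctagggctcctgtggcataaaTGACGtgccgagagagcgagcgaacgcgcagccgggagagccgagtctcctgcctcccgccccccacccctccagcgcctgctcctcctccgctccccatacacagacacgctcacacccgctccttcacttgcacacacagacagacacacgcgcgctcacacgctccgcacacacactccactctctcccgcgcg

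Other motifs were mostly absent from these windows. The full cAMP response element TGACGTCA, which holds the core on both strands, was in 0 of the 3 and in 1.79% of all promoters. The AP-1 motif TGANTCA was in 0 of the 3 and in 7.81% of all, and NBRE, the element AAAGGTCA that NR4A proteins themselves bind, in 0 of the 3 and in 1.51%. The CArG box of serum response factor was in 0 of the 3 and in 1.63% of all. The MEF2 box, in the form searched, was in 0 of the 3 and in 0.557%. The *Nr4a2* window holds the letters ttatttatag, which a looser form of the MEF2 box would match. TATAAA was found once, in *Nr4a2*, and in 13.6% of all promoters. That match is on the other strand, read as tttata within the same letters ttatttatag. A match describes letters in the window and nothing about binding in these cells.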

How the data were processed

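The authors deposited counts, UMIs of each gene in each cell and reads of each Sample Tag, from the BD Rhapsody pipeline 1.11 (GRCm38, GENCODE M19, introns counted). A cell's group needed at least 75% of at least 10 tag reads. Cells with 150 to 5000 genes and at most 20% mitochondrial UMIs were used. Scrublet (scanpy 1.11.5, Python 3.11.15) marked 0 cells by its automatic threshold, so the 942 cells of highest score (9.51%, the share that tag multiplets predict) were removed. Clustering used Seurat 5.3.0 in R 4.3.3 with 2000 variable genes, 30 principal components, 20 neighbors and a resolution of 0.5. Subclusters came from a second clustering of each class at resolutions of 0.45 (macrophage-like), 0.05 (dendritic-like) and 0.65 (T-like), the lowest tried that split them into at least 6, 3 and 4 parts, with 15 components under 500 cells.

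UMIs were summed by class and group, with exact Poisson intervals for CPM, Clopper-Pearson intervals for shares and conditional binomial intervals for log2 ratios. No test was possible with 1 pool per group. The ratio and its interval were tested on simulated Poisson counts only. Those lack the wider spread over cells seen in the real counts, so the test says nothing about intervals under that spread. Alternatives included TMM factors (edgeR 4.0.16). Genes named are the members, the lists, the markers and the 5 genes most like each member. Members, lists and the resolution were chosen with earlier results of these data known, and motifs after the data had been seen. Imaging and tumor growth were not analysed here.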

Additional observations from a re-analysis of the deposited data

Results flagged for a closer look

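In most of the cells left out of the comparisons NR4A levels were also higher with telmisartan. In cells over the mitochondrial limit (2623 control and 4433 telmisartan cells, of all types), the log2 ratios, telmisartan over control, were 0.29 for *Nr4a1*, 0.17 for *Nr4a2* (0.01 to 0.33) and 0.57 for *Nr4a3*. In cells over the gene limit (74 and 16 cells) they were 0.72, 1.07 and 1.66. In cells under the gene limit (963 and 940 cells) *Nr4a1* was at 0.65 (0.10 to 1.20), while *Nr4a2* was at -0.14 (-0.97 to 0.68) and *Nr4a3* at 0.30 (-0.55 to 1.17), both intervals holding 0. In predicted doublets (543 and 399 cells) the ratios were 0.48, 0.58 and 1.26. Except for those 2, each interval lies above 0, which is why the values are listed. The cells kept, within the limits and after doublet removal, had 0.69, 1.04 and 1.42. Why the ratios differ was not tested.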

How the results depend on the processing

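In macrophage-like, dendritic-like and T-like cells the 3 NR4A genes were higher with telmisartan under every alternative tried (45, 39 and 42 values), and 28, 29 and 38 of these stayed within the counting interval of the value reported or, on the ln scale, kept its direction. The neutrophil-like intervals held 0, and 23 of 38 values were above 0. One alternative, a tag share of 90%, gave no *Nr4a2* value for neutrophil-like cells. The log2 ratios that moved out of the interval follow in the order *Nr4a1*, *Nr4a2*, *Nr4a3*, and the cause was not tested.

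Without scaling they were 0.28, 0.61 and 1.07 in macrophage-like, 0.51, 1.00 and 1.08 in dendritic-like and 0.52, 0.63 and 0.82 in T-like cells. As a mean over cells of UMIs per 10000 they were 0.56, 0.95 and 1.40 in macrophage-like cells, and in dendritic-like cells 0.58 (*Nr4a1*) and 0.96 (*Nr4a2*). Thinned, they were 0.54, 0.96 and 1.28 in macrophage-like cells, 0.95 for *Nr4a2* in dendritic-like and 2.16 for *Nr4a3* in T-like cells. With macrophage subclusters weighted equally, chosen after seeing the data, they were 0.48, 0.88 and 1.26. At a tag share of 90%, *Nr4a1* was 0.73 in macrophage-like and 0.92 in dendritic-like cells, and *Nr4a3* 1.501 in dendritic-like and 1.68 in neutrophil-like cells (34 and 18 cells). At most 10% mitochondrial, *Nr4a2* was 1.095 and *Nr4a3* 1.56 in macrophage-like and 1.45 in dendritic-like cells. Without doublet removal, *Nr4a1* was 0.66 and *Nr4a2* 0.96 in macrophage-like cells. At resolution 0.3, *Nr4a2* was 1.38 in dendritic-like cells. The difference of mean ln(1 + UMIs per 10000) for *Nr4a1* was -0.18 in neutrophil-like cells.

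The 529 genes higher and 247 lower in macrophage-like cells became 303 and 92 at a minimum of 500 UMIs, 3276 and 1784 with 1 UMI in each group, and 141 and 36 at 2 times. The 215 and 195 of dendritic-like cells became 53 and 21, 1554 and 1798, and 44 and 16. These follow from the minimum or the size asked. Intervals cover counting error only.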
